A study of Homo sapiens with 18 samples.

Results

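Glucocorticoid receptor signalling was examined through TSC22D3 and 6 further genes, NR3C1, FKBP5, PER1, KLF9, SGK1 and ZBTB16, in 3 human NK/T cell lymphoma lines exposed to icaritin. The 7 genes were found by their NCBI Gene IDs, which are 1831 for TSC22D3, 2908 for NR3C1, 2289 for FKBP5, 5187 for PER1, 687 for KLF9, 6446 for SGK1 and 7704 for ZBTB16. Of the 7, 6 had a row in at least 1 library, out of 21662 gene IDs over all libraries, and ZBTB16 was listed in none of the 18 libraries. TSC22D3 was selected on its measured rise in expression after icaritin, so its difference between icaritin and DMSO is described below without a test. The question put to the other 6 was whether they moved with it. These 6 and the gene lists below were also chosen with earlier results of these data known. Their p-values and shares do not allow for that choice.

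The cultures, named SNT-8, SNK-10 and SNT-16, are all labelled as NK/T cell lymphoma lines of WT genotype, each standing for the tumour of origin as 1 cultured line. Cells of every line received the solvent DMSO or icaritin, a prenylated flavonoid from Epimedium plants, for 12 h, and every combination of line and treatment held 3 libraries. The dose of icaritin is not given in the sources used here, and no group received a glucocorticoid. Nothing states that the replicates were separate cultures, so every p-value refers to the spread among the deposited libraries alone, which may be technical.

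The expected counts, which are estimated fragments per gene, summed to between 9526431 and 10100453 per library, and 14396 genes had enough counts to be tested. All 12 NK and T cell markers examined were listed in every library. Their summed level was 4228 to 4459 counts scaled to library size (CPM) with DMSO and 3740 to 4077 CPM with icaritin in SNT-8, 2890 to 2983 and 2612 to 2726 in SNK-10, and 4664 to 4793 and 4191 to 4391 in SNT-16, so it was lower with icaritin in each line without overlap. EPCAM was listed in no library, and MS4A1 and CD14 did not exceed 0.325 CPM. The 3 B cell markers, which came almost wholly from PAX5, summed to 13.1 to 15.9 CPM with DMSO and 7.29 to 8.55 with icaritin in SNT-8, 14.1 to 14.7 and 10.6 to 11.7 in SNT-16, and at most 2.96 in SNK-10. The 5 fibroblast and epithelial markers, mostly COL1A1 in the SNT lines and with COL1A2 at up to 6.30 CPM in SNK-10, summed to levels that were higher with icaritin in each line without overlap, with at most 5.11, 11.1 and 5.35 CPM with DMSO and at most 12.4, 13.5 and 10.04 CPM with icaritin in SNT-8, SNK-10 and SNT-16. The 4 myeloid markers summed to at most 37.4 CPM, and their ranges with and without icaritin overlapped in each line. The part of these markers in the results below was not tested. The second icaritin library of SNT-8 stood further from its replicates than any other library did from its own, with a chi-square per gene of 5.96 and 8.18 against 1.37 to 4.13 for the pairs that did not include it. The SNT-8 responses of TSC22D3, NR3C1, SGK1, PER1 and FKBP5 are therefore also given without it.

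The glucocorticoid receptor, encoded by NR3C1, is a steroid-activated transcription factor that waits in the cytoplasm in a complex with HSP90, HSP70 and their co-chaperones. On binding a glucocorticoid it moves to the nucleus, activates genes near its DNA elements and holds down many cytokine genes by acting against NF-kB and AP-1. In lymphoid cells this programme includes TSC22D3, known as GILZ, and in many lymphoid cancers it leads to cell death, which is why glucocorticoids are used against them. TSC22D3, FKBP5, PER1, KLF9, SGK1 and ZBTB16 are among the genes most often used to read the activity of the receptor, although several of them also answer to other signals.

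RefSeq promoter windows of the genes that moved are shown to let the response be read beside the DNA at their start sites. Each window has 300 bases, 250 before and 50 after an annotated start, in GRCh38.p14; the build behind the deposited values is not stated, and the windows were matched by gene only. Of the 7 genes, 6 had windows, 18 in all, because several have more than 1 start. The windows were searched on both strands for the glucocorticoid response element (AGAACA, then NNN, then TGTTC), its first arm AGAACA alone, the forkhead element GTAAACA, the cyclic AMP response element TGACGTCA and the E-box CACGTG; a full glucocorticoid element would also contain that arm. Capitals mark a forkhead match in TSC22D3 and NR3C1, a match to the arm in SGK1 and FKBP5, and an E-box in PER1, all 5′ to 3′ on the gene's strand.
TSC22D3, chrX:107717013-107717312, minus strand: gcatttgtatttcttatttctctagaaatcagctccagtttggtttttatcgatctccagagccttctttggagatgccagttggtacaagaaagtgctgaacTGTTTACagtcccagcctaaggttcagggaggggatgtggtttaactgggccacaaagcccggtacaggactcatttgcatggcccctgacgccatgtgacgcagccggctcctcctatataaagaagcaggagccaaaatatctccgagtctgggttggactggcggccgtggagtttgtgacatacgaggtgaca
NR3C1, chr5:143403234-143403533, minus strand: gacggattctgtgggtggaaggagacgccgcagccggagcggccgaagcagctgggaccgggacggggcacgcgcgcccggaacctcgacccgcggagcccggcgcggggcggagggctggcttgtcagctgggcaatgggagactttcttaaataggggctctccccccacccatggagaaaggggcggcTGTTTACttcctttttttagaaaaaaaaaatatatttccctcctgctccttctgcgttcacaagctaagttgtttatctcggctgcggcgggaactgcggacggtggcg
SGK1, chr6:134177812-134178111, minus strand: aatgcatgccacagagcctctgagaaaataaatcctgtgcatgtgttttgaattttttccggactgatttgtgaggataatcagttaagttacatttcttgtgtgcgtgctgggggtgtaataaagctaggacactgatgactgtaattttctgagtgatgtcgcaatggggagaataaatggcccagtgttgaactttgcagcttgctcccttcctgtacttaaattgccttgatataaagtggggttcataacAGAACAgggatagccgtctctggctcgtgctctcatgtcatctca
FKBP5, chr6:35728534-35728833, minus strand: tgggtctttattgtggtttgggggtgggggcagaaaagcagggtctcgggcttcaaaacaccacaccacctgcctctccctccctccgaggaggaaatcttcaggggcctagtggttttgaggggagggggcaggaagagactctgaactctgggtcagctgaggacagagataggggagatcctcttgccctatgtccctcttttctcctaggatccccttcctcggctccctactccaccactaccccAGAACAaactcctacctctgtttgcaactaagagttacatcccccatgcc
PER1, chr17:8152355-8152654, minus strand: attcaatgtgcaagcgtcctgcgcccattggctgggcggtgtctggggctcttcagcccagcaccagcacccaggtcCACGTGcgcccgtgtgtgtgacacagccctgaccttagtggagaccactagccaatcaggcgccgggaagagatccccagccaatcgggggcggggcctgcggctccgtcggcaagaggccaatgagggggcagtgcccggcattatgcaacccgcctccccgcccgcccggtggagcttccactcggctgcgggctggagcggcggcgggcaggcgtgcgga

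The full glucocorticoid element was found in 0 of the 18 windows and in 4 of all 35116 RefSeq windows (0.0114%). The arm alone was found in 2 of the 18, the SGK1 and FKBP5 windows above, and in 14.8% of all windows. The forkhead element was found in 1 of the 4 TSC22D3 windows and 1 of the 7 NR3C1 windows, in both cases as TGTTTAC on the gene's strand, and in 3.42% of all windows. In TSC22D3 its first base lies at -147 from the start and in NR3C1 at -59. The E-box, at which the circadian clock factors CLOCK and BMAL1 bind, was found in the single PER1 window and in 1 of the 2 FKBP5 windows, and in 7.26% of all windows. The cyclic AMP element was found in 0 of the 18 and in 1.85% of all. These are matches of letters in short windows, and occupancy was not measured.

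Before icaritin, the 3 lines differed in how much of these genes they carried. Levels are compared between genes in FPKM, the authors' fragments scaled to transcript length and library size. In the DMSO libraries of SNT-8, FKBP5 stood highest at 55.4 ± 0.362 FPKM (SD, n = 3), followed by NR3C1 at 9.69 ± 0.781, PER1 at 3.85 ± 0.115, SGK1 at 1.92 ± 0.0681 and TSC22D3 at 0.383 ± 0.0289 FPKM. SNT-16 had the same order, with FKBP5 at 49.3 ± 1.40, NR3C1 at 10.3 ± 0.305, PER1 at 4.02 ± 0.148, SGK1 at 1.05 ± 0.299 and TSC22D3 at 0.733 ± 0.0929 FPKM. In SNK-10, TSC22D3 took the third place at 6.94 ± 0.163 FPKM, behind FKBP5 at 28.6 ± 0.972 and NR3C1 at 19.6 ± 0.532 FPKM. PER1 and SGK1 came next in SNK-10 at 3.70 ± 0.282 and 3.63 ± 0.364 FPKM, and they exchanged places in 1 of the 3 libraries. KLF9 came last in each line, at 0.823 ± 0.137 FPKM in SNK-10. In both SNT lines all 3 libraries kept the same order.

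**Figure D1:**
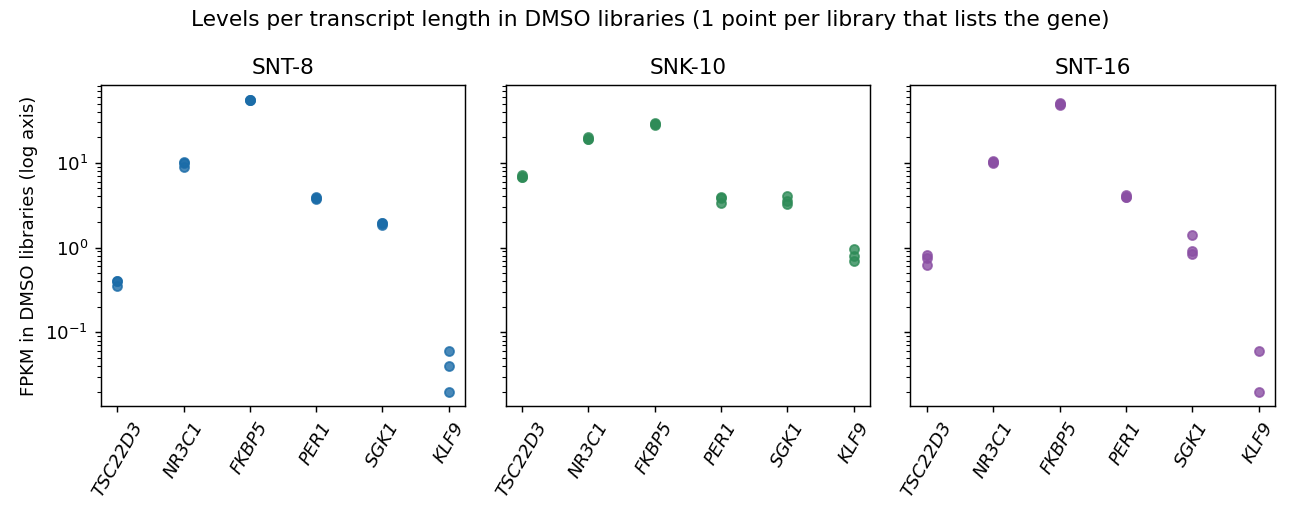
Levels in FPKM (log axis) of the 6 listed genes in the DMSO libraries, with 1 panel per line and 1 point per library that lists the gene. TSC22D3 lies near 0.383 FPKM in SNT-8, 0.733 in SNT-16 and 6.94 in SNK-10, and FKBP5 is the highest gene in each panel.

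Against SNK-10, the differences between lines were largest for TSC22D3 and KLF9 among the 6 genes. With DMSO, TSC22D3 was higher in SNK-10 than in SNT-8 by 4.16 on the log2 scale (SE 0.194, adjusted p = 2.46e-21) and higher than in SNT-16 by 3.28 (SE 0.169, adjusted p = 6.75e-20), by edgeR's quasi-likelihood test with Benjamini-Hochberg adjustment over all genes, which gives every adjusted p below unless another test is named. These DMSO libraries also entered the contrast by which TSC22D3 was chosen. Between SNT-16 and SNT-8 its difference of 0.88 (95% interval 0.18 to 1.58) did not pass (adjusted p = 0.0863), although limma on log2(FPKM + 1) called it (0.32, adjusted p = 0.00966). The share of all tested genes that differed was 57.6% between SNK-10 and SNT-8, 57.8% between SNK-10 and SNT-16, and 13.2% between the SNT lines. SNK-10 thus differed from both SNT lines at most genes tested, and nothing here sets these 6 apart in that respect.

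NR3C1, the receptor gene itself, was 2.05-fold higher in SNK-10 than in SNT-8 (log2 difference 1.03, SE 0.0592, adjusted p = 2.02e-18) and also higher than in SNT-16 (1.00, SE 0.0590, adjusted p = 4.37e-18). SGK1 was also higher in SNK-10, by 0.94 against SNT-8 (adjusted p = 2.08e-05) and by 1.85 against SNT-16 (adjusted p = 3.07e-10), and it was lower in SNT-16 than in SNT-8 (-0.91, adjusted p = 0.00517). FKBP5 went the other way: it was lower in SNK-10 than in SNT-8 by a log2 difference of -0.91 (adjusted p = 1.19e-18) and than in SNT-16 by -0.71 (adjusted p = 4.10e-15). It was also lower in SNT-16 than in SNT-8 (-0.21, adjusted p = 0.00307), a call that limma on log2(FPKM + 1) did not make (-0.17, adjusted p = 0.0544). PER1 did not pass the test between any of the lines: its differences were -0.05 (95% interval -0.25 to 0.16) for SNK-10 against SNT-8, -0.06 (-0.27 to 0.15) for SNK-10 against SNT-16 and 0.02 (-0.19 to 0.22) between the SNT lines.

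KLF9, a zinc-finger repressor induced by glucocorticoids, was found at useful counts only in SNK-10, where the DMSO libraries held 36, 41 and 49 expected counts. The DMSO libraries of SNT-8 held 3, 1 and 2 counts, and 2 of the SNT-16 libraries held 1 and 3, the third not listing the gene. Over the group sums the ratio of SNK-10 to SNT-8 was 21.8 (95% counting interval 9.73 to 60.4), and to SNT-16 it was 31.9 (12.2 to 119). These intervals cover counting error only.

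TSC22D3 encodes a leucine zipper protein that binds and restrains NF-kB and AP-1 in lymphocytes. In SNT-8 its level went from 0.708, 0.810 and 0.801 CPM with DMSO to 5.79, 6.32 and 7.27 CPM with icaritin, which rests on 7, 8 and 8 expected counts against 58, 63 and 74. In SNK-10 it went from 13.9, 14.4 and 13.7 CPM to 55.0, 58.4 and 64.8 CPM. In SNT-16 it went from 1.22, 1.59 and 1.49 CPM to 4.87, 5.53 and 5.43 CPM. Each icaritin library thus lay above each DMSO library of its line, and the icaritin libraries of both SNT lines stayed below the DMSO libraries of SNK-10. Across all tested genes, the icaritin libraries lay wholly above the DMSO libraries for 26.5% of genes in SNT-8, 27.8% in SNK-10 and 26.6% in SNT-16, and the groups lay apart in either direction for 54.1%, 55.2% and 52.7%.

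As log2 fold changes these rises were 3.04 (SE 0.226) in SNT-8, 2.08 (SE 0.0907) in SNK-10 and 1.87 (SE 0.205) in SNT-16. TSC22D3 ranked number 50, 54 and 120 by size among the rises of SNT-8, SNK-10 and SNT-16, before any filter on significance. On the log2(FPKM + 1) scale, which compresses low genes, the same rises were 1.64, 1.90 and 1.11, so their order depends on the scale. Without the second icaritin library of SNT-8 the SNT-8 value was 3.06. In a bulk sample, more RNA per cell cannot be told apart from more cells that carry it.

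**Figure D2:**
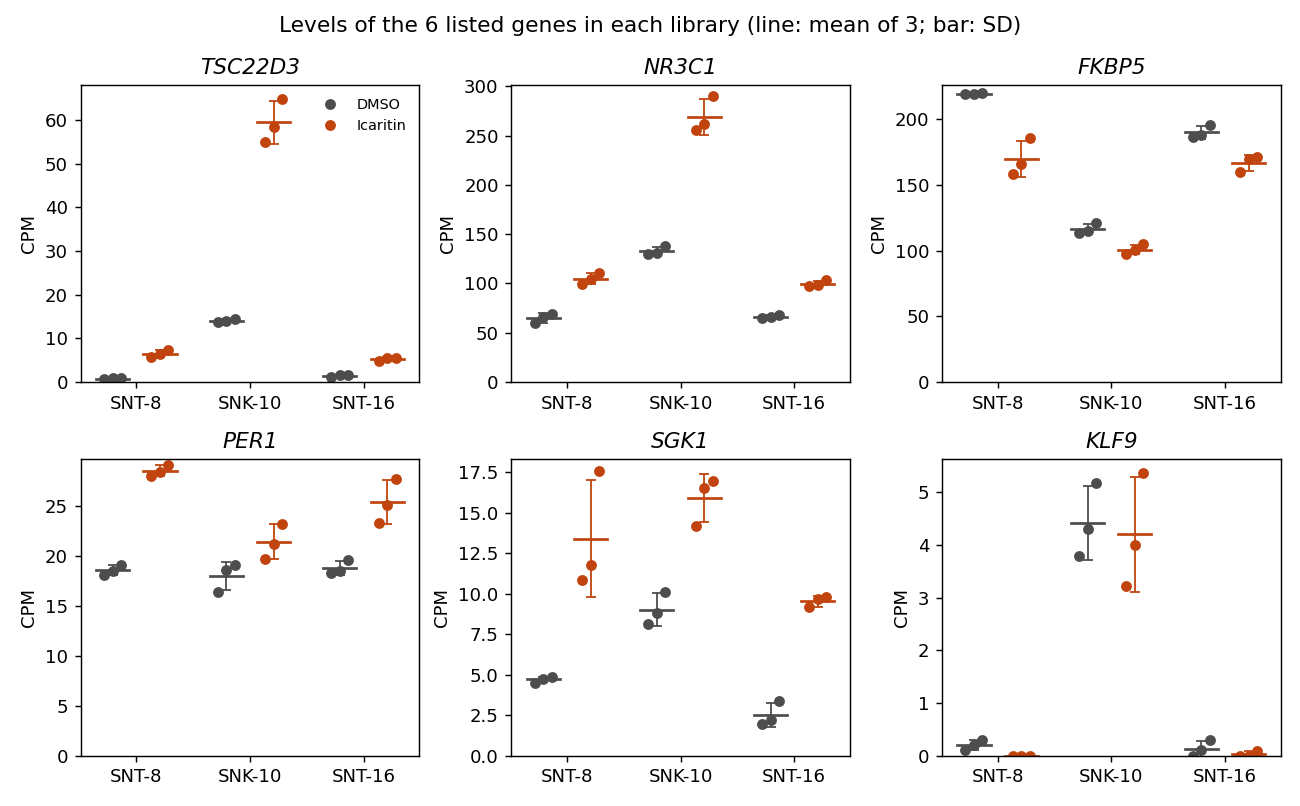
Levels in CPM of the 6 listed genes in each of the 18 libraries, with DMSO in grey and icaritin in orange, the mean of 3 as a horizontal line and the SD as a bar. TSC22D3, NR3C1, PER1 and SGK1 are higher with icaritin in each line, FKBP5 is lower, and KLF9 is near 0 outside SNK-10.

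The receptor gene NR3C1 was higher with icaritin in every line. Its SNT-8 libraries went from 59.6, 65.9 and 69.3 CPM to 99.9, 110.9 and 104.0 CPM. In SNK-10 it went from 137.9, 130.2 and 130.7 CPM to 262, 256 and 290.0 CPM. In SNT-16 it went from 64.4, 66.4 and 68.1 CPM to 98.6, 103.0 and 97.3 CPM. No DMSO library of a line overlapped its icaritin libraries, and icaritin brought the SNT lines to below the level of untreated SNK-10.

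The log2 fold change of NR3C1 was 0.69 in SNT-8 (SE 0.0601, adjusted p = 1.61e-12), 1.02 in SNK-10 (SE 0.0532, adjusted p = 7.65e-19) and 0.59 in SNT-16 (SE 0.0601, adjusted p = 1.57e-10). Genes called in each line made up 49.1% of those tested in SNT-8 (24% higher and 25% lower), 48.4% in SNK-10 (24.4% higher and 24% lower) and 42% in SNT-16 (21.2% higher and 20.8% lower), so a call by itself is common here. The rise of NR3C1 was larger in SNK-10 than in SNT-8 by 0.33 (adjusted p = 0.00508) and than in SNT-16 by 0.43 (adjusted p = 0.000202), tests passed by 10.8% and 12.5% of all genes. Across the 3 lines its response differed with adjusted p = 0.000288, and 14.3% of all tested genes passed that test. Without the second icaritin library of SNT-8 the rise in SNT-8 was 0.65.

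SGK1, a serine/threonine kinase of the AKT family that is induced by glucocorticoids and by other stimuli, was likewise higher with icaritin in every line. Its SNT-8 libraries went from 4.86, 4.76 and 4.50 CPM to 10.9, 17.6 and 11.8 CPM. In SNK-10 it went from 10.1, 8.82 and 8.14 CPM to 14.2, 17.0 and 16.6 CPM. In SNT-16 it went from 3.36, 1.98 and 2.18 CPM to 9.16, 9.67 and 9.77 CPM. The groups did not overlap in any line, and the second icaritin library of SNT-8 stood above the other 2.

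The log2 fold change of SGK1 was 1.51 in SNT-8 (SE 0.166, adjusted p = 6.98e-10), 0.82 in SNK-10 (SE 0.146, adjusted p = 1.15e-05) and 1.92 in SNT-16 (SE 0.199, adjusted p = 2.10e-10). Its response differed between lines (adjusted p = 0.00394) and, unlike that of NR3C1, was lowest in SNK-10: the rise there was below that of SNT-16 by a log2 difference of -1.11 (adjusted p = 0.0023). Against SNT-8 the difference was -0.69 (adjusted p = 0.0408), but without the second icaritin library of SNT-8 it was -0.45 (adjusted p = 0.17) and the rise in SNT-8 itself 1.27 (adjusted p = 5.74e-09). That call was also lost with DESeq2 (-0.68, adjusted p = 0.0828) and with limma on log2(FPKM + 1) (-0.51, adjusted p = 0.0699), and on leaving out any 1 of 8 of the 12 libraries of these lines.

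PER1, a circadian clock repressor with a well-studied glucocorticoid response, rose by less. In SNT-8 it went from 18.1, 18.5 and 19.1 CPM to 28.4, 29.1 and 28.0 CPM. In SNK-10 it went from 19.1, 18.6 and 16.4 CPM to 21.2, 23.2 and 19.7 CPM. In SNT-16 it went from 18.5, 18.3 and 19.6 CPM to 25.1, 23.3 and 27.7 CPM. The groups were apart in CPM in each line, but in SNK-10 they touched in FPKM, where the DMSO libraries reached 3.90 and the lowest icaritin library held 3.86.

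The log2 fold change of PER1 was 0.62 in SNT-8 (SE 0.0884, adjusted p = 2.06e-07), 0.43 in SNT-16 (SE 0.0895, adjusted p = 0.00011) and 0.25 in SNK-10 (SE 0.0946, adjusted p = 0.0273). The call in SNK-10 was lost with DESeq2 (0.26, adjusted p = 0.062), with limma on log2(FPKM + 1) (0.17, adjusted p = 0.0606), with the SNK-10 libraries alone (0.24, adjusted p = 0.053) and without 1 of 3 libraries. Those were the third DMSO library (0.19, adjusted p = 0.152), the first icaritin library (0.26, adjusted p = 0.0515) and the second icaritin library (0.19, adjusted p = 0.155). The test that the response of PER1 differed between lines did not pass (adjusted p = 0.119). The rise of PER1 in SNT-8 was 0.60 without the second icaritin library of that line.

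FKBP5, an HSP90 co-chaperone that lowers the receptor's affinity for hormone and is itself strongly induced by glucocorticoids, fell. In SNT-8 it went from 219, 219 and 220.0 CPM to 185, 158.5 and 166 CPM. In SNK-10 it went from 115, 120.7 and 113 CPM to 100.3, 97.3 and 105 CPM. In SNT-16 it went from 186, 196 and 188 CPM to 171, 160.1 and 169 CPM. Each icaritin library lay below each DMSO library of its line, which was the opposite of TSC22D3.

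The log2 fold change of FKBP5 was -0.37 in SNT-8 (SE 0.0497, adjusted p = 6.15e-08), -0.21 in SNK-10 (SE 0.0549, adjusted p = 0.00164) and -0.19 in SNT-16 (SE 0.0501, adjusted p = 0.00224). It was -0.32 in SNT-8 without the second icaritin library. A difference in this fall between lines was not called (adjusted p = 0.13), except without the first icaritin library of SNT-8 (adjusted p = 0.0177).

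KLF9 did not pass the test in SNK-10, where 36, 41 and 49 expected counts with DMSO stood beside 37, 30 and 49 with icaritin (log2 fold change -0.08, 95% interval -0.66 to 0.51, adjusted p = 0.846). The icaritin libraries of SNT-8 did not list the gene and those of SNT-16 held 1 count in 1 library, so no fold is given for the SNT lines. The fit called the step from 6 counts over 3 libraries to none in SNT-8 (adjusted p = 0.0144), but limma on log2(FPKM + 1) did not (adjusted p = 0.523), nor did the fit without the first DMSO library (adjusted p = 0.0526). ZBTB16, a zinc-finger factor known for its strong induction by glucocorticoids, was listed neither with DMSO nor with icaritin.

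**Figure D3:**
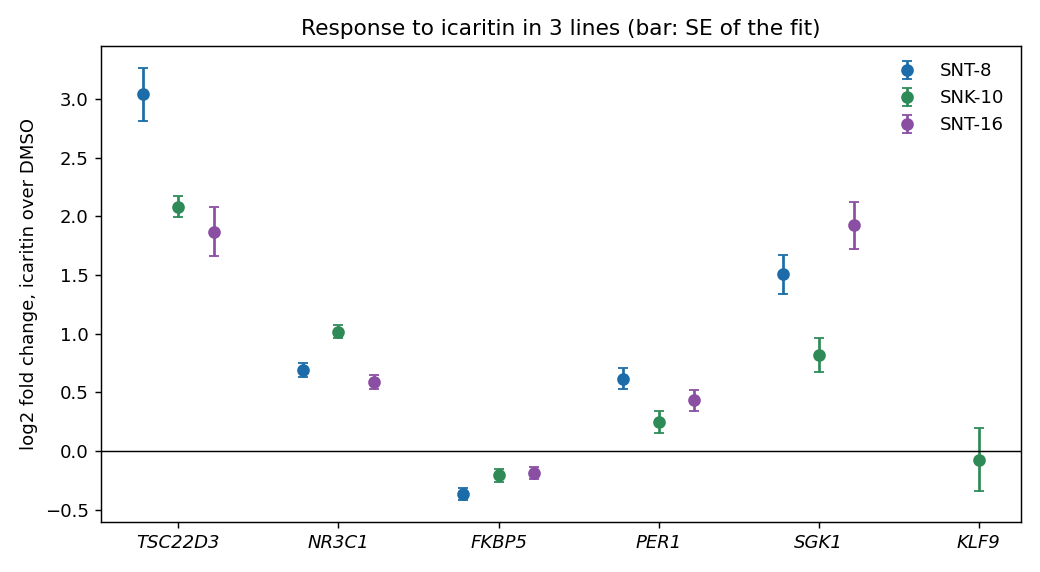
Log2 fold change of icaritin over DMSO with the SE of the fit, for the 6 listed genes in 3 lines; KLF9 is drawn for SNK-10 only because of its low counts in the SNT lines. TSC22D3, SGK1, NR3C1 and PER1 lie above 0, FKBP5 lies below 0 at -0.37 to -0.19, and KLF9 lies at -0.08 with an SE that crosses 0.

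Of the 5 listed genes beside TSC22D3, 3 therefore rose in each of the 3 lines, as 13% of all tested genes did. These were NR3C1, SGK1 and PER1, and the call of PER1 in SNK-10 was lost with DESeq2 and with limma. FKBP5 fell in each line, as 14.3% of all tested genes did. KLF9 did not pass in SNK-10, where its counts allowed a reading. By point estimate, TSC22D3 rose most in SNT-8, NR3C1 in SNK-10 and SGK1 in SNT-16. The rise of SGK1 in SNT-16 exceeded that in SNT-8 by 0.42 but did not pass the test (adjusted p = 0.517), which 0.438% of all genes passed. Over the 18 libraries, Pearson's r of log2 CPM with TSC22D3 was 0.981 for NR3C1, 0.795 for SGK1, 0.718 for KLF9, 0.193 for PER1 and -0.955 for FKBP5, a description of points that share line, treatment and library. Levels differ between lines, and within the 6 libraries of SNT-8, SNK-10 and SNT-16 the order was another: r was 0.993, 0.779 and 0.932 for PER1 and -0.925, -0.147 and -0.458 for KLF9, 0.981, 0.996 and 0.994 for NR3C1, 0.956, 0.965 and 0.943 for SGK1, and -0.951, -0.911 and -0.915 for FKBP5. KLF9 rests on few counts in the SNT lines.

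A wider list of 35 genes known to be induced by glucocorticoids in lymphoid or other cells moved in both directions in each line. Only in SNK-10 did more of them rise than fall. Of its 26 tested genes, 7 rose, 8 fell and 11 did not pass in SNT-8, 10 rose, 3 fell and 13 did not pass in SNK-10, and 7 rose, 8 fell and 11 did not pass in SNT-16. The median log2 fold change was -0.05, 0.04 and -0.17 in that order, against 0.02, 0.01 and 0.02 over all genes tested; without the genes at or below 0.3 CPM in both groups of a line, which is 3 counts per library, it was -0.08, 0.04 and -0.06. The shares that rose were 26.9%, 38.5% and 26.9%, beside 24%, 24.4% and 21.2% of all genes. Those that fell were 30.8%, 11.5% and 30.8%, beside 25%, 24% and 20.8%. In SNK-10, 10 rose and 5 fell with limma on log2(FPKM + 1), and 11 rose and 2 fell with DESeq2. With 1 SNK-10 library left out, 10 to 11 rose and 2 to 4 fell. In SNT-8, 8 rather than 7 rose without its second icaritin library.

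The genes of the list that rose in all 3 lines were 6 of the 26, beside 13% of all tested genes. They were TXNIP, an inhibitor of thioredoxin and of glucose uptake, BCL2L11, which encodes the pro-death protein BIM, the anti-proliferative gene BTG1, the NF-kB inhibitor TNFAIP3, the TGF-beta co-receptor TGFBR3 and the mTORC1 inhibitor DDIT4. TXNIP rose by a log2 fold change of 1.78 in SNT-8, 1.51 in SNK-10 and 1.17 in SNT-16. BCL2L11 rose by 0.95, 1.38 and 0.98, and BTG1 by 1.16, 0.67 and 0.99. TNFAIP3 rose by 0.85, 0.95 and 0.85, with levels that went from 158 to 285 CPM in SNT-8. TGFBR3 rose by 0.62, 0.76 and 0.55 and DDIT4 by 0.45, 0.46 and 0.34. All 18 of these calls had an adjusted p of at most 4.26e-06.

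ANXA1 and SLC19A2 fell in all 3 lines. ANXA1 encodes annexin A1, a classical mediator of the anti-inflammatory action of glucocorticoids, and its log2 fold change was -0.62 in SNT-8, -0.15 in SNK-10 and -0.42 in SNT-16. SLC19A2, a thiamine transporter gene, changed by -0.46, -0.38 and -0.28. NFKBIA, which encodes the NF-kB inhibitor induced by the receptor in lymphocytes, fell in SNT-8 (-0.77, adjusted p = 2.01e-16) and SNT-16 (-0.60, adjusted p = 2.40e-13), while in SNK-10 its value was -0.04 (adjusted p = 0.492). BIRC3, an inhibitor of apoptosis, had the same pattern with -0.68, -0.54 and, in SNK-10, -0.07 (adjusted p = 0.197).

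The metallothionein gene MT2A rose in SNT-8 (0.22) and SNK-10 (0.80) and had 0.11 in SNT-16 (adjusted p = 0.221). SAP30 passed only in SNT-16 (0.29, adjusted p = 0.00254), and PER2 fell only in SNK-10 (-0.37, adjusted p = 0.000459), with the test of a difference between lines passed by both. DUSP1, a phosphatase gene that is among the fastest to respond to glucocorticoids, did not pass in any line, with -0.26, -0.19 and -0.44. CXCR4 (0.33), IL7R (0.62) and PIK3IP1 (1.72) rose past the threshold only in SNK-10, PIK3IP1 from a mean of 0.737 CPM. CEBPD (-0.99 and -0.76), IL1R2 (-1.34 and -1.06), GLUL (-0.38 and -0.39) and SOCS1 (-0.35 and -0.37) fell in SNT-8 and SNT-16. CEBPD, IL1R2, GLUL and SOCS1 did not pass in SNK-10. DUSP1 and these further genes were named after their values were seen. The 9 genes of the list below the count filter, IRS2, PDK4, KLF15, ERRFI1, RASD1, CD163, CDKN1C, ANGPTL4 and GPX3, did not exceed a mean of 0.438 CPM in any group.

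**Figure D4:**
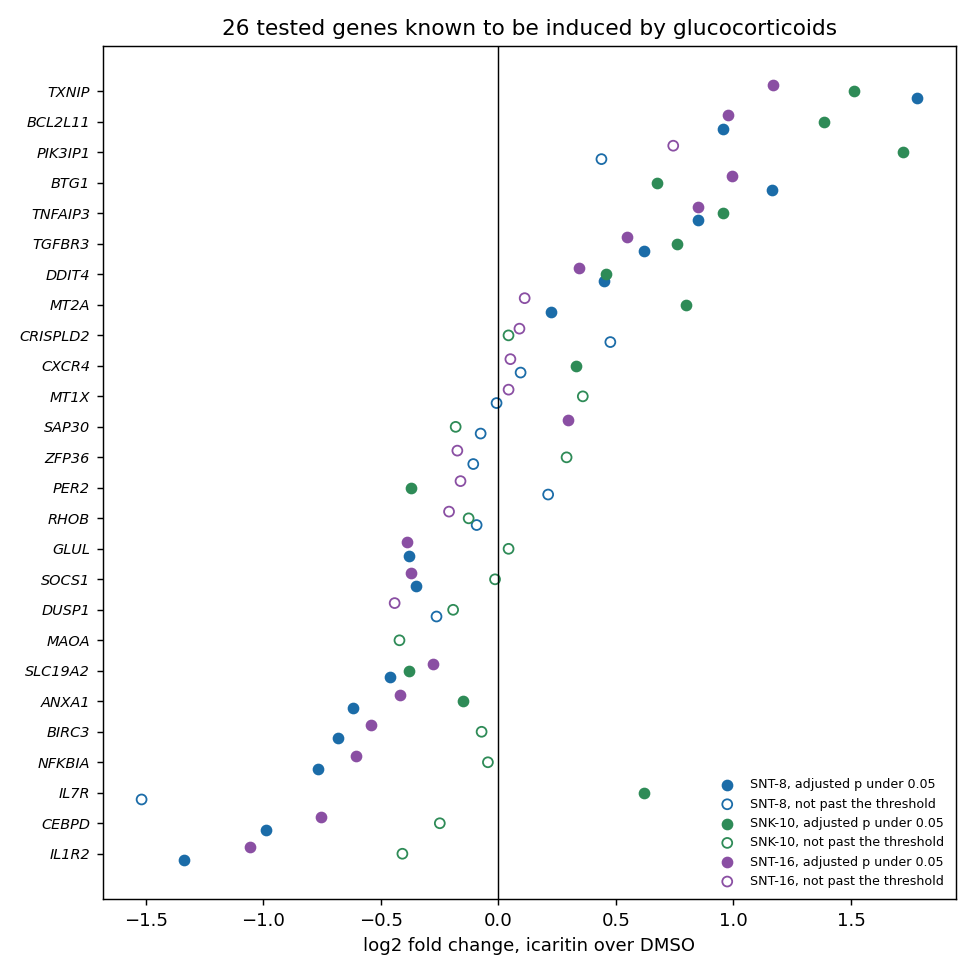
Log2 fold change of icaritin over DMSO for the 26 tested genes of the glucocorticoid-induced list in 3 lines, ordered by their average; filled points passed the threshold of 0.05, and values of genes at or below 0.3 CPM in both groups of a line are not drawn. TXNIP and BCL2L11 have the highest averages, although PIK3IP1 lies above both in SNK-10 at 1.72. ANXA1 and SLC19A2 are filled and below 0 in all lines.

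Genes that glucocorticoids are known to repress fell more often than they rose. Of 15 tested, 2 rose and 7 fell in SNT-8, 4 rose and 10 fell in SNK-10, and 3 rose and 7 fell in SNT-16, and the shares that fell were 46.7%, 66.7% and 46.7% beside 25%, 24% and 20.8% of all genes. The median log2 fold change was -0.15, -0.48 and -0.71, and -0.78, -0.48 and -0.43 without the genes at or below 0.3 CPM in both groups of a line. IFNG, the main cytokine of NK and T cells, fell by 1.60 in SNT-8, 1.04 in SNK-10 and 0.71 in SNT-16 on the log2 scale, and its mean level in SNT-8 went from 172 to 56.9 CPM. The chemokine gene CCL2 fell by 2.41, 1.41 and 2.02, lymphotoxin alpha, LTA, by 1.40, 0.42 and 1.12, and the death ligand gene FASLG by 1.94, 1.67 and 1.33. IL13, a type 2 cytokine gene, fell by 1.53, 0.70 and 0.97. In all, 6 of the 15 fell in each of the 3 lines, beside 14.3% of all tested genes. They were the genes just named and IL6.

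The genes of this list that rose in all 3 lines were 2 of the 15, beside 13% of all tested genes. ICAM1, an adhesion molecule driven by NF-kB, rose by 0.33 in SNT-8, 1.05 in SNK-10 and 0.31 in SNT-16, and the chemokine gene CCL3 by 0.52, 0.40 and 1.41. CXCL10 rose in SNK-10 (0.33, adjusted p = 0.0273) and SNT-16 (0.34, adjusted p = 0.0396), with 0.21 in SNT-8 (adjusted p = 0.256). NFKB1, a subunit gene of NF-kB, rose in SNK-10 (0.26, adjusted p = 0.00695) and had -0.10 in SNT-8 (adjusted p = 0.272) and -0.16 in SNT-16 (adjusted p = 0.109). Below the count filter were IL2, IL1B and PTGS2.

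Most chaperones and co-chaperones of the receptor fell, as FKBP5 did. Of 16 tested genes, 14 fell in SNT-8, 14 in SNK-10 and 12 in SNT-16, with 0 rises, and 12 fell in all 3 lines, as 14.3% of all tested genes did. The shares that fell were 87.5%, 87.5% and 75%, beside 25%, 24% and 20.8% of all genes, and the median log2 fold change was -0.73, -0.60 and -0.56. HSPA8, the constitutive HSP70, went from 4167 to 1799 CPM in SNT-8, with -1.21, -1.30 and -1.11 in SNT-8, SNK-10 and SNT-16. STIP1, which passes the receptor from HSP70 to HSP90, had -1.09, -1.03 and -0.92, and HSP90AB1, the constitutive HSP90, had -0.77, -0.69 and -0.63. FKBP4, the close relative of FKBP5 that carries the receptor towards the nucleus, fell by 0.87, 0.83 and 0.77 on the log2 scale. AHSA1, an activator of HSP90, had -0.74, -0.65 and -0.59, and DNAJB1, an HSP40, had -0.92, -1.04 and -0.71. All 18 of these calls had an adjusted p of at most 1.26e-12.

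Co-regulators of the receptor split between both directions. Of 15 tested, 6 rose and 6 fell in SNT-8, 7 rose and 3 fell in SNK-10, and 5 rose and 5 fell in SNT-16. The shares were 40%, 46.7% and 33.3% that rose, beside 24%, 24.4% and 21.2% of all genes, and 40%, 20% and 33.3% that fell, beside 25%, 24% and 20.8%. The p160 co-activators NCOA2 and NCOA3 rose in all 3 lines, NCOA2 by 0.63 in SNT-8, 0.45 in SNK-10 and 0.52 in SNT-16 and NCOA3 by 0.31, 0.61 and 0.25. So did the acetyltransferase gene CREBBP, by 0.53, 0.60 and 0.26, and TBL1XR1, a part of the co-repressor complex, by 0.38, 0.62 and 0.43. The deacetylase gene HDAC2 had -0.53, -0.61 and -0.28, the chromatin remodeller gene SMARCA4 -0.36, -0.23 and -0.48, and the Mediator gene MED1 -0.22, -0.13 and -0.22, all past the threshold. EP300, the close relative of CREBBP, passed only in SNT-16 (-0.17, adjusted p = 0.00149), and the difference between lines did not pass (adjusted p = 0.158). The methyltransferase gene CARM1 fell in SNT-8 (-0.22) and SNT-16 (-0.28) and had -0.05 in SNK-10 (adjusted p = 0.521). The Mediator gene MED14 (-0.15) and the deacetylase gene HDAC3 (-0.19) fell in SNT-8, with adjusted p of at least 0.375 in the other lines. PPARGC1A was below the count filter.

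Genes of steroid metabolism and transport and of other steroid receptors showed rises and 0 falls. Of 11 tested, 6 rose in SNT-8, 3 in SNK-10 and 4 in SNT-16, which is 54.5%, 27.3% and 36.4% beside 24%, 24.4% and 21.2% of all genes. The steroid reductase genes SRD5A1 and SRD5A3 rose in each line, SRD5A1 by 0.67, 0.83 and 0.76 and SRD5A3 by 0.77, 0.71 and 0.81. HSD11B1, the enzyme that makes cortisol from cortisone inside cells, rose in SNT-8 (0.71, adjusted p = 0.0174) and SNT-16 (0.93, adjusted p = 0.00196), but from means of 2.59 and 2.63 CPM. H6PD, which supplies its cofactor, rose in SNT-8 (0.26) and SNK-10 (0.44) and had 0.13 in SNT-16 (adjusted p = 0.212). STAR, which brings cholesterol to the site of steroid synthesis, rose in SNT-8 (1.15) and SNT-16 (0.70) and had 0.52 in SNK-10 (adjusted p = 0.104). The estrogen receptor gene ESR2 rose in SNT-8 (1.04) from a mean of 1.65 CPM, with -0.05 in SNK-10 (adjusted p = 0.904) and 0.26 in SNT-16 (adjusted p = 0.463). HSD11B2, which inactivates cortisol, CYP11A1, which starts steroid synthesis, and PGR were below the count filter.

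Paralogs of the 7 genes moved in both directions. Of 19 tested paralogs, 5 rose and 8 fell in SNT-8, 6 rose and 7 fell in SNK-10, and 5 rose and 5 fell in SNT-16. The shares that rose were 26.3%, 31.6% and 26.3%, near the 24%, 24.4% and 21.2% of all genes, and those that fell were 42.1%, 36.8% and 26.3%, beside 25%, 24% and 20.8%. TSC22D1, another leucine zipper gene of the TSC22 family, had -0.74 in SNT-8, -0.28 in SNK-10 and -0.55 in SNT-16, each past the threshold. TSC22D4 had -0.27 in SNT-8, 0.13 in SNK-10 and -0.23 in SNT-16, all past the threshold and with a difference between lines (adjusted p = 6.95e-05). Among the Kruppel-like factors, KLF2 rose by 0.44, 0.63 and 0.62 and KLF6 by 0.40, 0.41 and 0.36, while KLF16 had -1.11, -1.32 and -1.06. KLF13 rose by 0.20, 0.16 and 0.25, KLF7 rose in SNT-8 (0.51) and SNT-16 (0.70) with 0.12 in SNK-10 (adjusted p = 0.445), and KLF11 rose in SNK-10 (1.06), the SNT lines having at most 0.067 CPM on average. KLF4 and SGK2 were listed in no library. The immunophilin gene FKBP2 had -0.50, -0.58 and -0.45, and the BTB zinc-finger genes ZBTB7A and ZBTB7B went apart, with -0.55, -0.49 and -0.44 for the former and 0.45, 0.25 and 0.25 for the latter.

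Around PER1, the circadian genes moved both ways: of 15 tested, 5 rose and 3 fell in SNT-8, 4 rose and 5 fell in SNK-10, and 6 rose and 2 fell in SNT-16. The shares that rose were 33.3%, 26.7% and 40%, beside 24%, 24.4% and 21.2% of all genes, and those that fell were 20%, 33.3% and 13.3%, beside 25%, 24% and 20.8%. PER2 is shared with the induced list and PER3 with the paralogs. Without the second icaritin library of SNT-8, 1 rather than 3 fell there. RORA, an activator of BMAL1, rose by 1.06 in SNT-8, 1.23 in SNK-10 and 0.80 in SNT-16. BMAL1 itself rose by 0.52, 0.72 and 0.52 while its partner CLOCK had -0.57, -0.38 and -0.40, and the repressor NR1D2 rose by 0.42, 0.79 and 0.33. BHLHE40, a clock repressor of lymphocytes, rose by 0.18, 0.51 and 0.16. CSNK1E, a kinase gene of the clock, rose in SNT-8 (0.31) and SNT-16 (0.26) and had 0.02 in SNK-10 (adjusted p = 0.788). TEF fell in SNK-10 (-1.15) and SNT-16 (-1.49), with -0.29 in SNT-8 (adjusted p = 0.611), and DBP fell in SNT-8 (-1.32, adjusted p = 0.0153) from a mean of 1.18 CPM. CIART was below the count filter, and NPAS2 and BHLHE41 were listed in no library.

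Around SGK1, 5 of 11 tested partners rose in each line and 2, 1 and 0 fell in SNT-8, SNK-10 and SNT-16, so that 45.5% rose in each, beside 24%, 24.4% and 21.2% of all genes, and 18.2%, 9.09% and 0% fell, beside 25%, 24% and 20.8%. NDRG1, a substrate whose phosphorylation is used to read SGK1 activity, rose by 1.03, 1.30 and 0.99. FOXO3, a transcription factor that SGK1 and AKT1 inactivate by phosphorylation, rose by 0.89, 1.16 and 0.80, and RICTOR, the subunit that defines the mTORC2 complex upstream of SGK1, by 0.82, 1.27 and 0.51. GSK3B rose in SNT-8 (0.16) and SNT-16 (0.18) and fell in SNK-10 (-0.21), and its response differed between lines (adjusted p = 0.00134). MLST8, an mTOR complex subunit gene, rose in SNT-8 (0.20) and SNK-10 (0.22) and had 0.07 in SNT-16 (adjusted p = 0.423). The ubiquitin ligase gene NEDD4 rose in SNT-16 (0.45) and had 0.15 in SNT-8 (adjusted p = 0.0761) and 0.07 in SNK-10 (adjusted p = 0.713). AKT1 (-0.17) and the mTORC2 subunit gene MAPKAP1 (-0.19) fell in SNT-8. These are RNA levels, and phosphorylation was not analysed here.

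**Figure D5:**
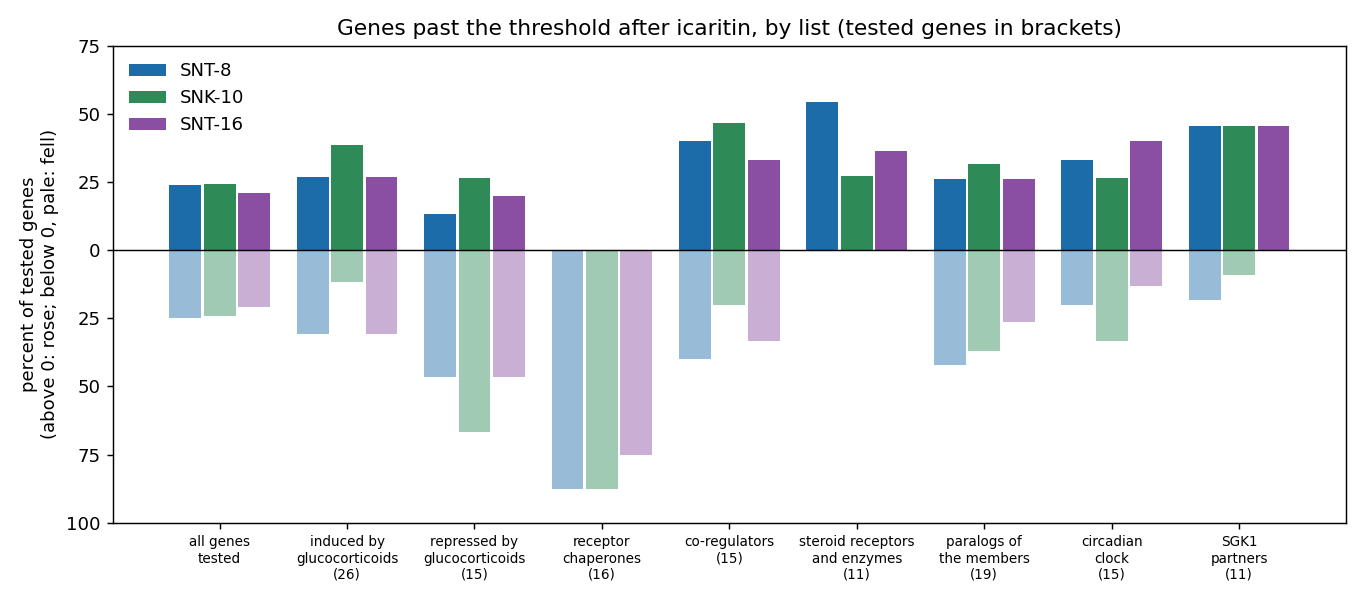
Percent of the tested genes of each list that rose (solid, above 0) or fell (pale, below 0) past the threshold after icaritin in SNT-8, SNK-10 and SNT-16, beside the same over all 14396 genes at the left. The receptor chaperones show falls only, at 75% to 87.5%, and the glucocorticoid-induced list shows both directions in each line.

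The 5 genes whose log2 CPM ran most like that of TSC22D3 over the 18 libraries, among 9331 genes with at least 10 CPM on average, were TRIB1 (Pearson's r 0.991), TXNIP (0.991), ARFGEF2 (0.988), PDPR (0.987) and SSH1 (0.987). The points share line and treatment, and fall into 6 groups, so r is a description only. TRIB1, a pseudokinase gene, went from 19.9 to 60.8 CPM in SNT-8, from 75.4 to 183 CPM in SNK-10 and from 24.4 to 59.5 CPM in SNT-16, with the highest level in SNK-10 as in TSC22D3. TXNIP had that pattern as well, with DMSO means of 8.07, 35.4 and 9.43 CPM in SNT-8, SNK-10 and SNT-16. Within the 6 libraries of each line, r with TSC22D3 was 0.993 to 0.999 for TRIB1 and 0.98 to 0.999 for TXNIP.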

How the data were processed

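RNA-seq libraries had been prepared from total RNA with an MGIEasy kit, and Bowtie2 and HISAT are named, per the submitters' processing notes, without versions. The deposited files give, per NCBI Gene ID, the authors' expected count, an estimated number of fragments, and the authors' FPKM, per the file headers; the genome build is not given in the sources used here. Genes that a file does not list were set to 0, since the lowest FPKM listed is 0.01. Of 21662 IDs, 21559 were named from RefSeq (GRCh38.p14).

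Expected counts were rounded and fitted with edgeR 4.0.16 (R 4.3.3; TMM, filterByExpr with minimum count 10, robust quasi-likelihood, 1 mean for each of 6 groups, 12 residual degrees of freedom, common BCV 4.43%). The two-sided tests were adjusted over all 14396 genes, with a threshold of 0.05, and SE is the log2 fold change over the root of F. DESeq2 1.42.0, limma 3.58.1 on log2(FPKM + 1) and the other alternatives stand in the closing section. On simulated counts with 100 genes changed by each fold in 1 line, 60% to 65% of 1.5-fold and 74% to 79% of 2-fold changes were recovered. Far more genes were called in the real contrasts, so these shares do not give the recovery in these data.

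The members and lists were chosen with earlier results of these data known. The text names all 7 members, up to 6 genes per list with the smallest p of the average contrast, list genes called against their list's majority, untested list genes, and the 5 genes most like TSC22D3. DUSP1 and some further genes of the induced list, and IL6 of the repressed list, were named after their values were seen. Annotated genes that overlap a member had at most 0.304 CPM on average. A marker gene that was considered is not reported here.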

Additional observations from a re-analysis of the deposited data

Results flagged for a closer look

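The response to icaritin of some of the genes described above differed between lines by the interaction test of edgeR, adjusted over all genes, which 14.3% of the tested genes passed. Among the 7 genes these were NR3C1, with the largest rise in SNK-10 (adjusted p = 0.000288), and SGK1, with the smallest rise there (adjusted p = 0.00394).

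In the glucocorticoid-induced list they were, with adjusted p in brackets, NFKBIA (1.36e-09), BIRC3 (6.55e-09) and GLUL (1.63e-05), which fell in the SNT lines past the threshold. The others were BTG1 (0.000268), MT2A (0.000111), ANXA1 (0.000271), PER2 (0.00597), SAP30 (0.00819), BCL2L11 (0.0106), CXCR4 (0.0161) and TXNIP (0.0487).

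In the glucocorticoid-repressed list they were LTA (adjusted p = 5.02e-11), ICAM1 (1.15e-10), IFNG (4.32e-10), CCL2 (1.24e-07), CCL3 (0.00117), IL13 (0.00401) and NFKB1 (0.0174). ICAM1 rose by 1.05 in SNK-10 and by 0.33 and 0.31 in SNT-8 and SNT-16.

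Among chaperones and co-regulators they were DNAJB1 (adjusted p = 0.0196), NCOA3 (0.000656), CREBBP (7e-04), HDAC2 (0.00579) and SMARCA4 (0.0181). Among paralogs they were TSC22D4 (adjusted p = 6.95e-05), KLF7 (0.0263) and TSC22D1 (0.0477). Among circadian genes and partners of SGK1 they were BHLHE40 (adjusted p = 0.000151), RORA (0.000602), RICTOR (6.97e-06), GSK3B (0.00134), NEDD4 (0.0357) and AKT1 (0.0469). In SNT-8, SNK-10 and SNT-16 the log2 fold changes were 0.51, 0.12 and 0.70 for KLF7, 0.15, 0.07 and 0.45 for NEDD4, and -0.17, 0.05 and -0.09 for AKT1.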

How the results depend on the processing

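Alternatives were the size factors of DESeq2, no filter on low counts, the DESeq2 test, limma on log2(FPKM + 1), a replicate block, each line fitted alone and each library left out in turn. Readings of the response differences between lines, of KLF9 in SNT-8 and of lists without 1 library were added after seeing the data. Counts of called genes stayed within 1.5 times in the 8 comparisons recomputed, which leave out the differences in response between pairs of lines. With limma on log2(FPKM + 1), 5 glucocorticoid-induced genes fell in SNK-10, TSC22D3 rose by 1.64, 1.90 and 1.11 in SNT-8, SNK-10 and SNT-16 and differed between the SNT lines with DMSO by 0.32, where FKBP5 had -0.17; the cause was not tested, beyond the pseudocount that compresses low genes. PER1 in SNK-10 was 0.26 with DESeq2, 0.17 with limma and 0.24 with the SNK-10 libraries alone, none past the threshold, and 0.19 to 0.30 with a library left out; the cause was not tested. The SGK1 response of SNK-10 minus SNT-8 was -0.68 with DESeq2, -0.51 with limma and -0.82 to -0.45 with a library left out; it was past the threshold without 4 of the 12 libraries of these lines and not without the other 8.

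Differences that never passed changed sign when 1 library was left out: NR3C1 between the SNT lines (-0.0276 to 0.0796), PER1 with DMSO in SNK-10 minus SNT-8 (-0.0884 to 0.0174), SNK-10 minus SNT-16 (-0.10 to 0.0013) and SNT-16 minus SNT-8 (-0.0156 to 0.037), and KLF9 in SNK-10 (-0.29 to 0.0834). The adjusted p for a difference in FKBP5 response between lines was 0.0177 to 0.292.

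Replicate numbers did not pair the libraries: 0 of 9 numbers had a correlation of deviations over 0.1, and 4 of 9 correlated best with their own number. With a replicate block, 6847, 6788 and 5819 genes were called in SNT-8, SNK-10 and SNT-16, and the SGK1 response of SNK-10 minus SNT-8 was -0.68 (adjusted p = 0.0514 by edgeR). Of the glucocorticoid-induced list in SNK-10, 11 rather than 10 genes rose with the block and 2 rather than 3 fell. The block changed no other call of a single gene among the recomputed results, which leave out single genes of the lists. The 7 to 16 counts of TSC22D3 in the DMSO libraries of the SNT lines and the 0 to 3 of KLF9 limit those values.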
